A study of Mus musculus with 18 samples.

Results

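The 10 genes of the antioxidant defence described here are *Nqo1*, *Gclc*, *Gclm*, *Txnrd1*, *Srxn1*, *Sod1*, *Sod2*, *Sod3*, *Cat* and *Gpx3*, measured in RNA-seq libraries of mouse tail tendon fibroblasts (TFs). They were chosen by name as antioxidant enzymes and targets of the transcription factor NRF2, by a rule that uses no measured value although earlier results of these data were known, and all 10 were found among the 55491 rows of the count table and passed the filter on low counts. TFs had crawled out of tail tendons of male and female mice aged 4 to 6 months into collagen gel, and were then cultured on plastic for 4 days in 20% or 1% O2. There were 3 arms with 3 replicates at each O2 level, 18 libraries in all: Ctrl TFs from Cre-negative mice (genotype given as wild-type), cKO TFs from Hif1a-floxed mice in which the *Scx* gene's control sequences drive Cre recombinase in the tendon lineage (genotype given as *Hif1a* knockout), and Ctrl TFs given Cre gesicles, membrane vesicles that deliver the recombinase as protein. The gesicle arm has no group with empty vesicles, so an effect of the vesicle and one of the Cre cannot be told apart in it. The labels do not say whether its cells carried floxed alleles. The study's methods describe Cre-negative Ctrl mice as *Hif1a*-floxed, which was not reconciled with the wild-type genotype given.

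NRF2, the product of *Nfe2l2*, is held in the cytoplasm by KEAP1 and degraded there until oxidants or electrophiles modify KEAP1. It then enters the nucleus, pairs with a small MAF protein and binds antioxidant response elements near its target genes. Among these targets are the quinone reductase NQO1, both subunits of the enzyme that makes the glutathione precursor (GCLC, the catalytic one, and GCLM, the modifier), thioredoxin reductase TXNRD1 and sulfiredoxin SRXN1, which restores over-oxidized peroxiredoxins. The superoxide dismutases turn superoxide into hydrogen peroxide, SOD1 in the cytosol, SOD2 in the mitochondria and SOD3 outside the cell, and the peroxide is then removed by catalase in peroxisomes and by glutathione peroxidases, of which GPX3 is the secreted one.

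The 250 bases before the start site are shown for the 4 genes that were higher in 1% O2 in all 3 arms and, beside them, for the *Txnrd1* promoter that held such an element, although *Txnrd1* itself was not called. Sequences and starts are RefSeq's on GRCm38.p6, where 8 of the 10 genes had at least 1 promoter entry and 10 promoters in all, 3 of them of *Txnrd1*. *Gclc* and *Sod3* are named only. The stretch printed is chr8:107403206-107403455 on the minus strand for *Nqo1*, chr3:122245307-122245556 on the plus strand for *Gclm*, chr2:152105274-152105523 on the plus strand for *Srxn1*, chr2:103485154-103485403 on the minus strand for *Cat* and chr10:82858956-82859205 on the plus strand for *Txnrd1*. Each runs 5′ to 3′ towards the start, and capitals mark a match to one of the antioxidant response motifs.
*Nqo1*: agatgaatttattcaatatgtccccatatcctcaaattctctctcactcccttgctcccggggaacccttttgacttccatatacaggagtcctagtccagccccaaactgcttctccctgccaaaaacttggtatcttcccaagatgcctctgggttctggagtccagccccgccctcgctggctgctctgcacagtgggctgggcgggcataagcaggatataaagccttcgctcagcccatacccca
*Gclm*: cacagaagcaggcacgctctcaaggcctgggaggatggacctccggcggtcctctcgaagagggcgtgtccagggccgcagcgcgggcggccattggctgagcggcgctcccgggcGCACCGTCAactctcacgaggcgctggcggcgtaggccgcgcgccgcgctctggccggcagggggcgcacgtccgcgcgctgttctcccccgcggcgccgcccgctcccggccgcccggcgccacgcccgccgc
*Srxn1*: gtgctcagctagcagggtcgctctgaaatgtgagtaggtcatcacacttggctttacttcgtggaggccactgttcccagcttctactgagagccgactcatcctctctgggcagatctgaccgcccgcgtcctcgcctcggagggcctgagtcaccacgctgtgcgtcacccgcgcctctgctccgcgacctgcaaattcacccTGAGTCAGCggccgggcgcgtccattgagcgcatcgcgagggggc
*Cat*: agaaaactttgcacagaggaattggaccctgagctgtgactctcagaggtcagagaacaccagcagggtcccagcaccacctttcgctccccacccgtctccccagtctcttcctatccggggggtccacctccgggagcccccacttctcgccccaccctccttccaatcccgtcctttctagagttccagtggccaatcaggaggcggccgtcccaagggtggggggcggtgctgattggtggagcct
*Txnrd1* promoter 2: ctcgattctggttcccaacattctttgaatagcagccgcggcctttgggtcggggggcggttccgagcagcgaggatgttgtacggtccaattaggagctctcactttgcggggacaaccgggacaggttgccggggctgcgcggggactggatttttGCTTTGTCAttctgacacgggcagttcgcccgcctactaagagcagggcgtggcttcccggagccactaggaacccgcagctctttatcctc

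Motifs were searched on both strands from 250 bases before to 50 bases after the start. The antioxidant response element was written as TGACNNNGC, and a second form that NRF2 shares with related factors as TGANTCAGC, which is not a subset of the first. These can overlap each other. The first was present in 4 of the 10 member promoters and in 12.4% of all 32851 promoters of the same length, and the second in 1 of 10 against 1.19%. *Gclm* held the first as GCACCGTCA, which begins 134 bases before the start, *Txnrd1* promoter 2 as GCTTTGTCA, beginning 92 bases before it, and *Sod1* as GCGTGGTCA, beginning 56 bases before it. *Srxn1* held the second form, TGAGTCAGC, beginning 45 bases before the start, and a match to the first motif, GCTAGGTCA, on the transcribed side of it, outside the stretch shown. The core of the hypoxia response element bound by HIF, ACGTG, was present in 1 of the 10 member promoters, that of *Gclm*, against 19.6% of all promoters. No match was found in these windows for *Nqo1*, *Cat*, *Sod2*, *Gpx3* and the other two promoters of *Txnrd1*. A match is a run of letters and was not measured as a bound site.

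Library totals ran from 6857558 to 51806453 counts. The shallowest was cKO replicate 1 in 1% O2, and every other library had at least 26967440, so every member had at least 305 counts in every library. Values below are counts per 1000000 counts (CPM), scaled by the trimmed mean of M values (TMM) over all libraries. All 8 fibroblast markers were present, with a summed level of 4199 to 15855 CPM. The tendon markers *Scx* (6.20 to 21.5 CPM) and *Tnmd* (35.0 to 210 CPM) were present in every library as well. The 5 leukocyte markers summed to 10.6 to 25.4 CPM, most of it *Lyz2* (8.57 to 22.2 CPM), with *Cd68* at 0.331 to 2.66, *Csf1r* at 0.425 to 2.36 and *Ptprc* and *Adgre1* at or below 0.162 CPM. Of the 4 endothelial markers, *Tek* had values given with the O2 response, and *Pecam1*, *Cdh5* and *Kdr* stayed at or below 0.650 CPM. *Xist* and Y-linked counts placed 1 male and 2 females in the Ctrl and the gesicle arm, and 2 males and 1 female in the cKO arm, so that genotype and sex are partly joined. *Hif1a*, the targeted gene (chr12:73901375-73947530, plus strand), had gene totals of 335 to 371 CPM in Ctrl and 294 to 431 CPM in cKO TFs in 20% O2, and of 365 to 488 and 398 to 504 CPM in 1% O2. The log2 difference, cKO over Ctrl, was 0.11 (adjusted p = 0.757, edgeR) in 20% and 0.08 (adjusted p = 0.819) in 1% O2. A gene total need not show the loss of a floxed exon. Counts of the Cre sequence itself were found in 5 of 6 libraries labelled cKO, at most 5 counts each, and in 0 of 6 Ctrl and 0 of 6 gesicle libraries. The cKO library without any was the shallowest.

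Of the 10 members, 5 were called between the O2 levels and 5 were not. *Nqo1*, *Gclm*, *Srxn1*, *Sod3* and *Cat* were called higher in 1% than in 20% O2 in Ctrl TFs, the same 5 in gesicle-treated TFs, and 4 of them, all but *Sod3*, in cKO TFs. No member was called lower in any arm. The largest rise was that of *Nqo1*, 2.92-fold in Ctrl, 3.59-fold in cKO and 2.97-fold in gesicle-treated TFs, followed by *Gclm* with 2.47-fold, 2.41-fold and 2.57-fold. A gene was called when edgeR's quasi-likelihood test gave a Benjamini-Hochberg adjusted p under 0.05 over all genes tested and the fold change was at least 1.5. By this rule 1.47% of 15850 genes were called higher and 0.410% lower in Ctrl TFs, 1.40% and 0.700% in cKO TFs, and 1.64% and 0.767% of 16174 genes in gesicle-treated TFs. DESeq2 called the same numbers of members, 5, 4 and 5. The O2 groups did not overlap, with 1% O2 higher, for 6 members in Ctrl, 6 in cKO and 7 in gesicle-treated TFs, beside 16.6%, 10.5% and 13.0% of all genes tested, and 0 members lay lower without overlap, beside 13.4%, 10.2% and 11.0%. The median log2 difference over the 10 members was 0.53 in Ctrl, 0.50 in cKO and 0.55 in gesicle-treated TFs, beside 0.000196, -0.03 and -0.02 over all genes tested. The p-values rest on the spread between 3 libraries a group. In cultures measured in bulk, fewer cells of a type and less RNA per cell cannot be told apart.

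**Figure D1:**
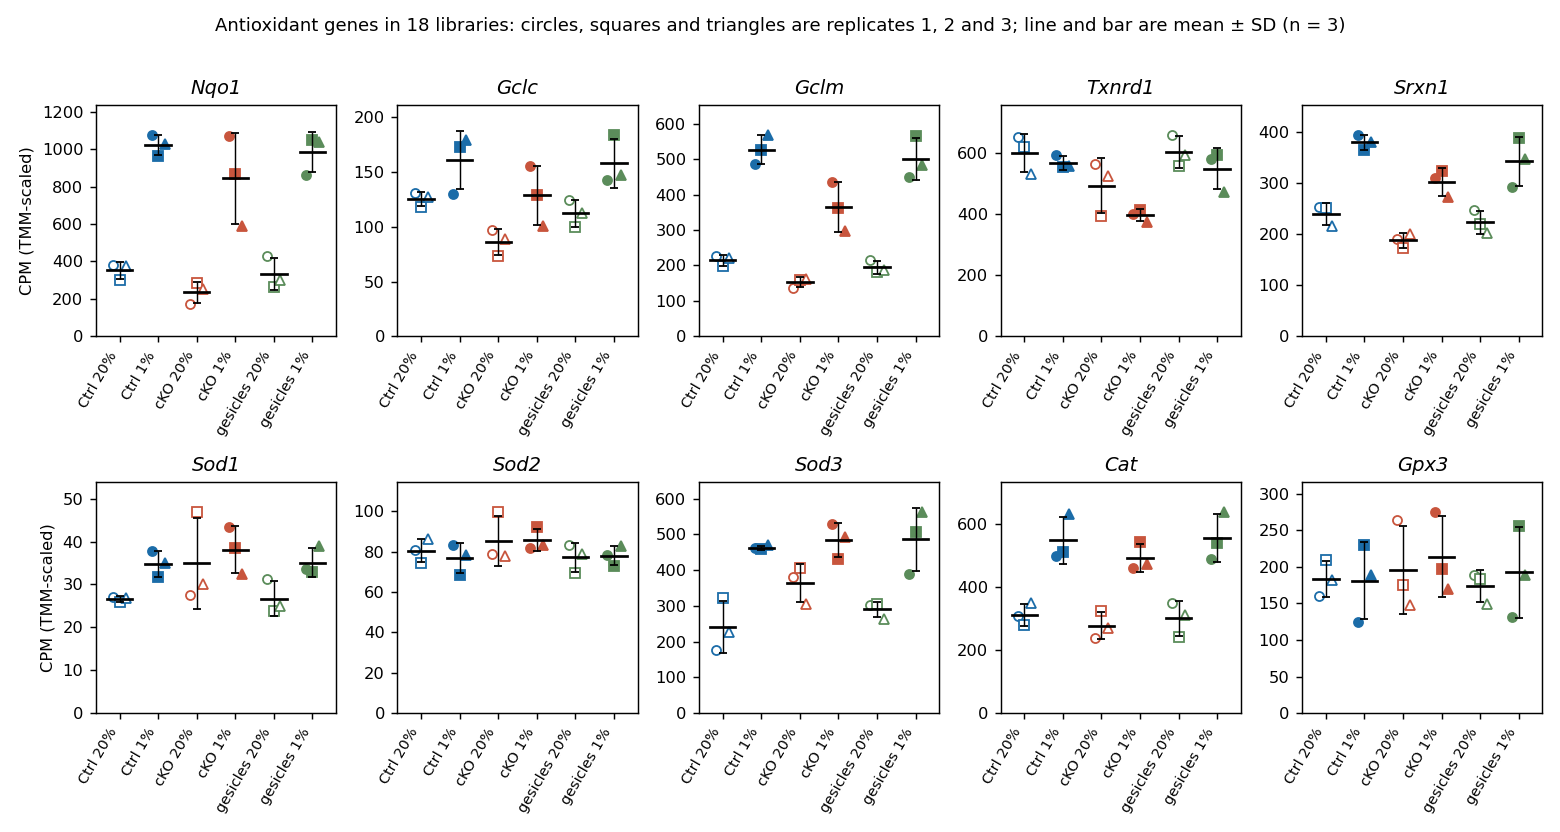
TMM-scaled CPM of the 10 genes, 1 panel a gene with its own y axis, in each library of the 6 groups (open symbols, 20% O2, filled symbols, 1% O2, circle, square and triangle for replicates 1, 2 and 3, bars for the mean ± SD, n = 3). *Nqo1* lay at 175 to 430 CPM in the 9 libraries in 20% O2 and at 591 to 1077 CPM in the 9 libraries in 1% O2, whereas *Sod2* stayed between 68.6 and 99.8 CPM throughout.

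*Nqo1* (ENSMUSG00000003849, chr8:107388225-107403206, minus strand) encodes the reductase that takes quinones directly to hydroquinones. In Ctrl TFs it was measured at 384, 300 and 375 CPM in 20% O2 and at 1077, 967 and 1027 CPM in 1% O2 (replicates 1 to 3). In cKO TFs it was at 175, 283 and 251 CPM in 20% and at 1072, 870 and 591 CPM in 1% O2. Gesicle-treated TFs had 430, 266 and 300 CPM in 20% and 862, 1052 and 1040 CPM in 1% O2. In every arm each 1% library lay above each 20% library, and the widest spread was that of cKO TFs in 1% O2. The log2 difference was 1.54 ± 0.22 in Ctrl (SE, adjusted p = 0.00378, edgeR), 1.84 ± 0.23 in cKO (adjusted p = 0.00176) and 1.57 ± 0.22 in gesicle-treated TFs (adjusted p = 0.00115). The ratio between libraries of the same replicate number ran from 2.74 to 3.22 in Ctrl, 2.36 to 6.14 in cKO and 2.01 to 3.96 in gesicle-treated TFs. The highest of these ratios, 6.14, was formed with the shallowest library, cKO replicate 1 in 1% O2. Its partner, cKO replicate 1 in 20% O2, had the lowest *Nqo1* value of all libraries, 175 CPM. Without the shallowest library the cKO difference in *Nqo1* was 1.65 (adjusted p = 0.00629, edgeR). Leaving out any 1 library kept the *Nqo1* call in each arm.

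Of the subunits of glutamate-cysteine ligase, *Gclm* was called in each arm and *Gclc* in none. The genes were not tested against each other. *Gclm* (ENSMUSG00000028124, chr3:122245557-122270732, plus strand), the modifier subunit, was measured at 226, 197 and 220 CPM in Ctrl TFs in 20% O2 and at 486, 527 and 569 CPM in 1% O2. In cKO TFs it was at 136, 160 and 162 CPM and at 437, 362 and 297 CPM, and in gesicle-treated TFs at 215, 180 and 188 CPM and at 451, 567 and 485 CPM. The O2 groups did not overlap in any arm. The log2 difference of *Gclm* was 1.30 ± 0.15 in Ctrl (adjusted p = 0.000627, edgeR), 1.27 ± 0.15 in cKO (adjusted p = 0.00121) and 1.36 ± 0.14 in gesicle-treated TFs (adjusted p = 6.6e-05), and it was called in each arm with any 1 library left out. Part of the *Gclm* locus is covered on the opposite strand by *Gm17494*, whose summed count was 9.99% of that of *Gclm*. Strand use in counting is not given in the sources used here, and reads from such partners cannot then be told apart.

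*Gclc* (ENSMUSG00000032350, chr9:77754535-77794485, plus strand), the catalytic subunit, was measured at 131, 118 and 127 CPM in Ctrl TFs in 20% O2 and at 130, 173 and 179 CPM in 1% O2, and these groups overlapped. In cKO TFs it was at 96.8, 73.6 and 89.1 CPM in 20% and at 156, 129 and 101 CPM in 1% O2, which did not overlap, nor did the gesicle-treated groups at 100 to 125 and 143 to 184 CPM. Its log2 difference was 0.37 ± 0.17 in Ctrl (adjusted p = 0.318, edgeR), 0.58 ± 0.17 in cKO (adjusted p = 0.102) and 0.49 ± 0.17 in gesicle-treated TFs (adjusted p = 0.132). *Gclc* was not called in any arm. DESeq2 gave it an adjusted p of 0.0367 in cKO TFs at a log2 difference of 0.57, under the fold minimum.

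Of the thiol-reducing enzymes, *Srxn1* was called and *Txnrd1* was not. *Srxn1* (ENSMUSG00000032802, chr2:152105516-152111376, plus strand) was measured at 253, 250 and 215 CPM in 20% and at 394, 365 and 380 CPM in 1% O2 in Ctrl TFs. In cKO TFs it was at 191, 172 and 200 CPM and at 310, 324 and 272 CPM, and in gesicle-treated TFs at 246, 219 and 203 CPM and at 292, 387 and 348 CPM. No 1% library of any arm fell to the level of a 20% library of that arm. The log2 difference of *Srxn1* was 0.67 ± 0.11 in Ctrl (adjusted p = 0.00977, edgeR), 0.69 ± 0.11 in cKO (adjusted p = 0.0094) and 0.62 ± 0.12 in gesicle-treated TFs (adjusted p = 0.00991). These differences lie close to the fold minimum of 1.5. The *Srxn1* call was lost in Ctrl without Ctrl 20% replicate 3 (0.60, adjusted p = 0.0628), in cKO without cKO 1% replicate 2 (0.65, adjusted p = 0.0502), and in the gesicle arm without replicate 2 or 3 at either O2 level (0.52 to 0.61, adjusted p = 0.0538 to 0.0679). In a fit of the compared groups alone it was lost in cKO (0.71, adjusted p = 0.0888, edgeR) and in gesicle-treated TFs (0.61, adjusted p = 0.0992).

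*Txnrd1* (ENSMUSG00000020250, chr10:82833951-82897712, plus strand), the cytosolic selenoenzyme that keeps thioredoxin reduced, was measured at 651, 620 and 531 CPM in 20% and 594, 553 and 556 CPM in 1% O2 in Ctrl TFs. It was at 562, 392 and 525 CPM and at 399, 414 and 374 CPM in cKO TFs, and between 472 and 659 CPM in the gesicle-treated groups. The O2 groups overlapped in all 3 arms. The log2 difference was -0.08 ± 0.14 in Ctrl, -0.31 ± 0.14 in cKO (adjusted p = 0.241, edgeR) and -0.14 ± 0.13 in gesicle-treated TFs. *Txnrd1* thus stood on the other side of zero from *Nqo1*, *Gclm* and *Srxn1*, with no call.

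Among the superoxide dismutases, SOD3, the secreted enzyme that binds heparan sulfate in the matrix, had the only called gene. *Sod3* (ENSMUSG00000072941, chr5:52363791-52371418, plus strand) was measured at 178, 321 and 226 CPM in Ctrl TFs in 20% O2 and at 460, 459 and 469 CPM in 1% O2. In cKO TFs it was at 380, 406 and 304 CPM and at 528, 432 and 493 CPM, and in gesicle-treated TFs at 301, 304 and 264 CPM and at 390, 507 and 563 CPM. The O2 groups did not overlap in any arm, and the levels in 1% O2 overlapped among the 3 arms, while in 20% O2 the cKO libraries lay higher than 2 of the 3 Ctrl libraries. The log2 difference of *Sod3* was 0.94 ± 0.19 in Ctrl (adjusted p = 0.0238, edgeR), 0.42 ± 0.19 in cKO (adjusted p = 0.243) and 0.75 ± 0.18 in gesicle-treated TFs (adjusted p = 0.0394). Whether the cKO response of *Sod3* differed from the Ctrl response was tested as an interaction, and the difference of -0.52 ± 0.27 had an adjusted p of 1.00. The call in Ctrl was lost on leaving out any 1 library but Ctrl 20% replicate 2 (0.76 to 0.95, adjusted p = 0.0562 to 0.112). That in the gesicle arm was lost on leaving out any but the 1% library of replicate 1 (0.60 to 0.78, adjusted p = 0.0789 to 0.178), and also with the replicate number as a block (0.73, adjusted p = 0.0685). With the compared groups alone the *Sod3* call was lost in Ctrl (0.93, adjusted p = 0.0614, edgeR) and in gesicle-treated TFs (0.74, adjusted p = 0.0938).

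*Sod1* (ENSMUSG00000022982, chr16:90220754-90226329, plus strand), the copper and zinc enzyme of the cytosol, was measured at 27.2, 25.8 and 26.7 CPM in Ctrl TFs in 20% O2 and at 37.8, 31.7 and 35.0 CPM in 1% O2. These groups did not overlap, nor did those of gesicle-treated TFs at 23.9 to 31.3 and 32.8 to 38.9 CPM, whereas in cKO TFs the ranges of 27.5 to 46.9 and 32.5 to 43.4 CPM did. Its log2 difference was 0.40 ± 0.19 in Ctrl (adjusted p = 0.333, edgeR), 0.13 ± 0.19 in cKO and 0.39 ± 0.18 in gesicle-treated TFs (adjusted p = 0.265). On the opposite strand *Sod1* overlaps *Scaf4*, whose summed count was 105% of that of *Sod1*, so its values are uncertain. *Sod2* (ENSMUSG00000006818, chr17:13006846-13040063, plus strand), the manganese enzyme of the mitochondria, was between 68.6 and 99.8 CPM in all 18 libraries, with log2 differences of -0.06, 0.01 and 0.02 (SE 0.12 to 0.13).

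Of the peroxide-removing enzymes, *Cat* was called in each arm and *Gpx3* in none. *Cat* (ENSMUSG00000027187, chr2:103453849-103485160, minus strand), which encodes catalase, was measured at 307, 278 and 348 CPM in 20% and at 500, 511 and 633 CPM in 1% O2 in Ctrl TFs. It was at 237, 323 and 272 CPM and at 461, 542 and 474 CPM in cKO TFs, and at 349, 242 and 311 CPM and at 488, 541 and 639 CPM in gesicle-treated TFs. All 1% libraries of an arm lay above its 20% libraries. The log2 difference of *Cat* was 0.82 ± 0.15 in Ctrl (adjusted p = 0.0154, edgeR), 0.84 ± 0.15 in cKO (adjusted p = 0.0149) and 0.89 ± 0.16 in gesicle-treated TFs (adjusted p = 0.00664). *Cat* lost its call in Ctrl without Ctrl 20% replicate 1 or 2 or Ctrl 1% replicate 3 (0.70 to 0.81, adjusted p = 0.0742 to 0.0833). It lost it in cKO without cKO 20% replicate 1 or 3 or cKO 1% replicate 2 (0.73 to 0.82, adjusted p = 0.0599 to 0.0734), and kept it in the gesicle arm with any 1 library left out. With the compared groups alone the *Cat* call was lost in cKO (0.85, adjusted p = 0.0804, edgeR) and in gesicle-treated TFs (0.88, adjusted p = 0.0753).

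*Gpx3* (ENSMUSG00000018339, chr11:54902453-54910377, plus strand), the secreted glutathione peroxidase, varied more between libraries of a group than between O2 levels. It was measured at 160, 209 and 182 CPM in Ctrl TFs in 20% O2 and at 125, 230 and 188 CPM in 1% O2, and the groups overlapped in all 3 arms. The log2 difference was -0.01 in Ctrl, 0.14 in cKO and 0.14 in gesicle-treated TFs, each with an SE of 0.26 to 0.27, the largest among the 10 genes.

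**Figure D2:**
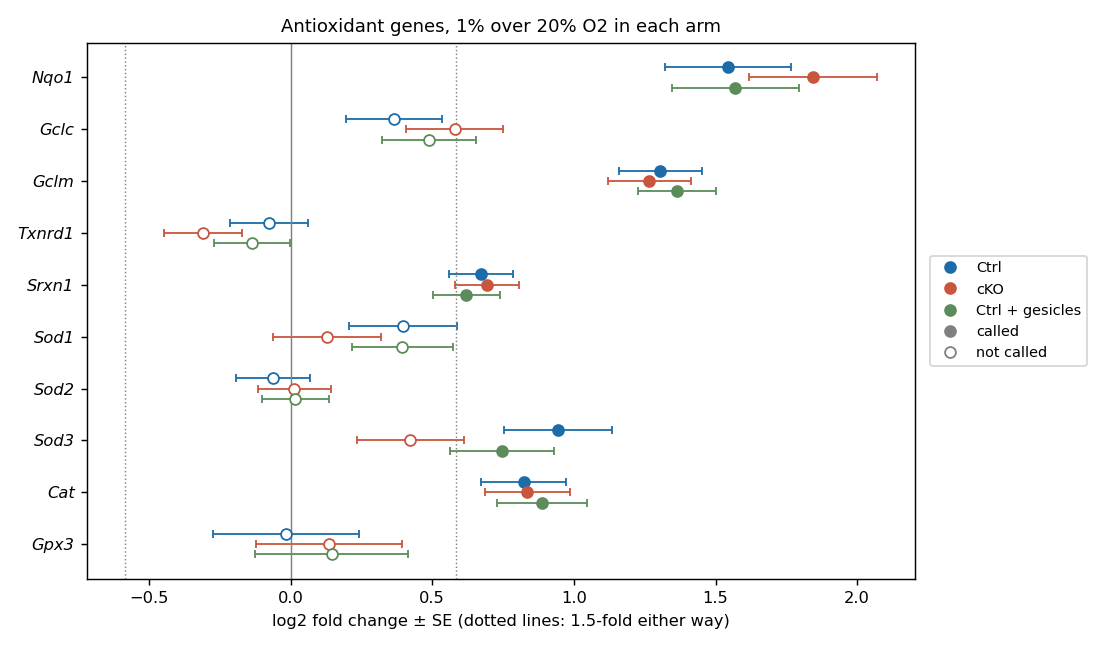
Log2 difference in CPM, 1% over 20% O2, of each of the 10 genes in Ctrl, cKO and gesicle-treated TFs (points, edgeR's estimate, bars, SE, filled where called, dotted lines at a 1.5-fold change). *Nqo1* and *Gclm* lie between 1.27 and 1.84 in all 3 arms, *Srxn1* and *Cat* between 0.62 and 0.89, and *Txnrd1*, *Sod2* and *Gpx3* between -0.31 and 0.14.

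Marker genes moved beside the O2 response in part. The endothelial marker sum, nearly all of it *Tek*, was 27.9 to 45.5 CPM in Ctrl TFs in 20% O2 and 11.5 to 27.6 CPM in 1% O2, and in gesicle-treated TFs 25.8 to 61.3 and 17.4 to 25.2 CPM, while the other 3 markers of that list were at or below 0.650 CPM. In cKO TFs it was 37.2 to 76.6 and 16.8 to 40.0 CPM. The skeletal muscle marker sum, most of it *Acta1*, was higher in 1% O2 without overlap in cKO (12.5 to 18.1 and 18.6 to 24.2 CPM) and gesicle-treated TFs (21.0 to 30.7 and 37.5 to 43.5 CPM), and overlapped in Ctrl TFs (24.5 to 47.9 and 26.6 to 35.7 CPM). The part of either in the members' values was not tested. The fibroblast and the tendon marker sums overlapped between the O2 levels in each arm.

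Levels of different genes were set against each other as CPM per kilobase of exon. *Nqo1* was first in all 6 groups. It stood at 227 ± 29.6 CPM per kilobase (mean ± SD, n = 3) in Ctrl TFs in 20% O2 and 659 ± 35.6 in 1% O2, and its range overlapped that of the next gene only in cKO TFs in 20% O2, where *Nqo1* was at 152 ± 35.8 and *Gpx3* at 108 ± 33.3. In Ctrl TFs in 20% O2 the order then ran through *Cat* (119), *Gpx3* (101), *Srxn1* (85.0), *Txnrd1* (84.8) and *Sod3* (64.6), in which neighbours overlapped, to *Gclm* (34.1) and *Gclc* (33.3), which overlapped each other, and *Sod2* (8.05) and *Sod1* (6.70). In 1% O2 *Cat* (210) was second without overlap, followed by *Srxn1* (135), *Sod3* (124), *Gpx3* (99.9), *Gclm* (83.8), *Txnrd1* (80.1) and *Gclc* (42.7). *Gclm* and *Gclc* no longer overlapped there. The place of *Sod1*, *Sod2* and *Txnrd1* depends on the length used. With the longest principal transcript (641 bases for *Sod1* in place of 3970 of merged exons, 5861 in place of 10008 for *Sod2*, and 3531 in place of 7086 for *Txnrd1*), *Txnrd1* was second in Ctrl TFs in 20% O2 at 170 CPM per kilobase, *Sod1* the seventh at 41.5 and *Sod2* last at 13.7, and *Nqo1* was still first in every group.

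Genotype was the second comparison. In 20% O2, 4 members that NRF2 is known to drive lay lower in every cKO library than in every Ctrl library, namely *Nqo1*, *Gclc*, *Gclm* and *Srxn1*, and *Sod1* lay higher. Over all genes tested 10.3% lay lower and 10.8% higher without overlap. Of 25 other genes listed as NRF2 targets, described below, 12 had a log2 difference above zero in this comparison. Their median was -0.003, beside 0.03 over all genes. DESeq2 called 1 of them higher and 4 lower, beside 159 higher and 273 lower of 28521 genes. The fold change, cKO over Ctrl, was 0.668 for *Nqo1*, 0.687 for *Gclc*, 0.710 for *Gclm* and 0.781 for *Srxn1*. None of these passed the test, and edgeR called 0 of the 10 members, with 5 at an unadjusted p under 0.05, as 2264 of all 15850 genes were (14.3%), while DESeq2 also called 0. Over all genes 0.145% were called higher and 0.202% lower with the cKO label. The log2 difference was -0.58 ± 0.22 for *Nqo1* (adjusted p = 0.294, edgeR), -0.54 ± 0.17 for *Gclc* (adjusted p = 0.213), -0.49 ± 0.14 for *Gclm* (adjusted p = 0.184) and -0.36 ± 0.11 for *Srxn1* (adjusted p = 0.214). The values behind them are those given above, such as 136, 160 and 162 CPM of *Gclm* in cKO TFs against 226, 197 and 220 CPM in Ctrl TFs.

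*Sod3* pointed the other way in 20% O2, at 304 to 406 CPM in cKO and 178 to 321 CPM in Ctrl TFs, with a log2 difference of 0.59 ± 0.19 (adjusted p = 0.225, edgeR) and overlapping groups. That of *Sod1* was 0.39 ± 0.19 (adjusted p = 0.366), and its groups parted by little, 25.8 to 27.2 CPM in Ctrl against 27.5 CPM and above in cKO TFs. For *Txnrd1* the difference was -0.29 ± 0.14 (adjusted p = 0.358) and for *Cat* -0.17 ± 0.15 (adjusted p = 0.588), and those of *Sod2* and *Gpx3* were 0.08 and 0.09. The median over the 10 members was -0.23, beside 0.03 over all genes.

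In 1% O2, *Gclm*, *Txnrd1* and *Srxn1* lay lower in every cKO than in every Ctrl library, and the other 7 members overlapped. Of all genes tested, 15.2% lay lower and 12.1% higher without overlap there. The log2 difference was -0.53 ± 0.14 for *Gclm* (adjusted p = 0.204, edgeR), -0.52 ± 0.14 for *Txnrd1* (adjusted p = 0.202) and -0.33 ± 0.11 for *Srxn1* (adjusted p = 0.224). The *Txnrd1* values behind it were 399, 414 and 374 CPM in cKO and 594, 553 and 556 CPM in Ctrl TFs. For *Nqo1* the difference was -0.28 ± 0.22 (adjusted p = 0.497) and for *Gclc* -0.33 ± 0.17 (adjusted p = 0.337). By edgeR 0 of 10 members were called, with 3 at an unadjusted p under 0.05, as 2658 of all 15850 genes were (16.8%), and 0 by DESeq2, where 0.0252% of all genes were called higher and 0.0126% lower by edgeR. DESeq2 gave *Gclm* an adjusted p of 0.0389 in 20% O2 (log2 difference -0.51) and 0.0401 in 1% O2 (-0.53), and *Txnrd1* one of 0.0394 in 1% O2 (-0.52), each under the fold minimum. The median over the members was -0.22, beside 0.003 over all genes. That of the 25 other listed NRF2 targets was -0.09, with 9 above zero. DESeq2 called 2 of them lower, beside 92 higher and 196 lower of 28521 genes.

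The genotypes also differed in sex, as given above, and in the sums of 3 marker lists. The skeletal muscle marker sum, most of it *Acta1*, was 24.5 to 47.9 CPM in Ctrl and 12.5 to 18.1 CPM in cKO TFs in 20% O2, and 26.6 to 35.7 and 18.6 to 24.2 CPM in 1% O2, with *Myod1* at or below 0.0255 CPM. The Schwann cell marker sum was 0.517 to 0.856 CPM in Ctrl and 1.45 to 2.37 CPM in cKO TFs in 20% O2, and overlapped in 1% O2 at 0.469 to 1.56 and 1.43 to 2.13 CPM. The epidermal sum, at most 0.236 CPM in any library, was 0.0913 to 0.236 CPM in Ctrl and 0 to 0.0359 CPM in cKO TFs in 20% O2, and overlapped in 1% O2. The part of these in the members' values was not tested by itself. With *Xist* as a covariate, 0 members were called between the genotypes at either O2 level. The main fit had also called 0, so this count cannot show the part of sex.

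The response to O2 was not shown to differ between cKO and Ctrl TFs for any member. In the interaction edgeR called 0 of the 10 members, with 0 at an unadjusted p under 0.05, and 0 of all genes, with 367 at an unadjusted p under 0.05. DESeq2 called 0 members and 2 genes. For *Nqo1* the cKO response was larger by 0.30 ± 0.31 on the log2 scale, for *Gclm* the difference was -0.04 ± 0.20, for *Srxn1* 0.02 ± 0.16 and for *Cat* 0.01 ± 0.21.

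Differences with Cre gesicles were small. Against untreated Ctrl TFs all 10 members overlapped at both O2 levels, where 6.88% of all genes tested lay higher and 5.63% lower without overlap in 20% O2 and 2.97% and 3.35% in 1% O2. The skeletal muscle marker sum did not overlap in 1% O2, at 26.6 to 35.7 CPM in Ctrl and 37.5 to 43.5 CPM in gesicle-treated TFs, and its part was not tested. EdgeR called 0 of 10 members in 20% O2 and 0 of 10 in 1% O2, with 0 at an unadjusted p under 0.05 in either, and DESeq2 called 0 as well. Over all genes 0.0247% were called higher and 0% lower in 20% O2, where 594 had an unadjusted p under 0.05 and DESeq2 called 46. In 1% O2 edgeR called 0% in either direction, with 324 genes at an unadjusted p under 0.05 and 0 called by DESeq2. The largest difference among the members was that of *Sod3* in 20% O2, 0.26 ± 0.18 on the log2 scale, and *Nqo1* was at -0.09 ± 0.22 in 20% and -0.06 ± 0.22 in 1% O2. The median over the members was -0.07 in 20% and -0.008 in 1% O2. *Hif1a* in these comparisons was at 0.06 and -0.13. In the interaction of gesicles and O2, edgeR called 0 members, with 0 at an unadjusted p under 0.05, and 0 genes, with 243 at such a p, and DESeq2 called 0 of either.

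**Figure D3:**
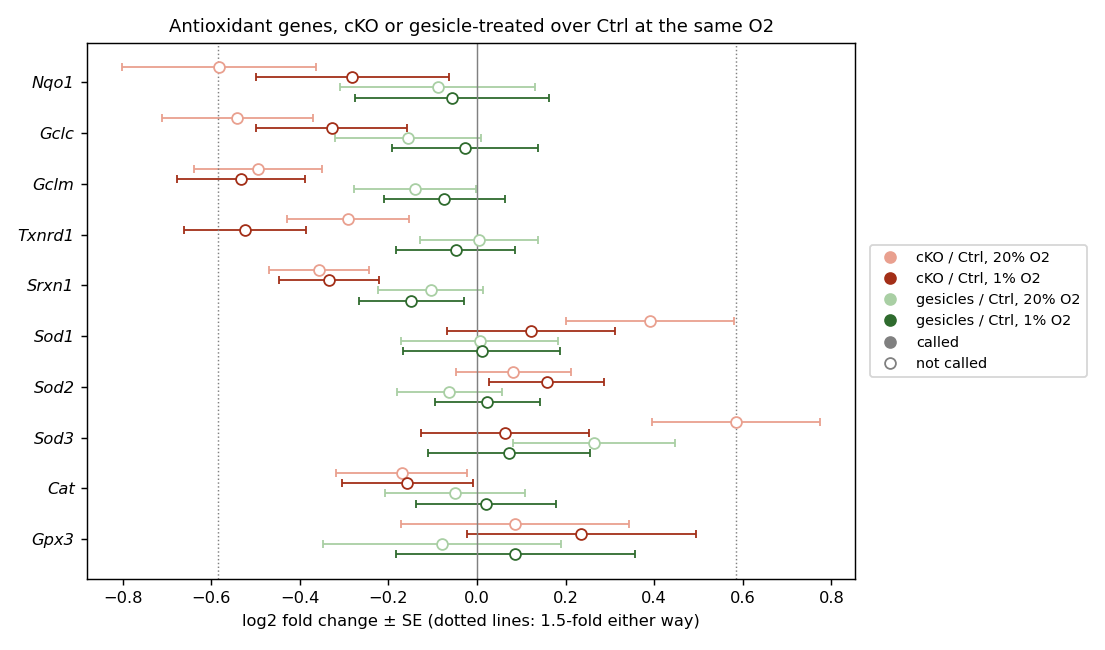
Log2 difference in CPM of the 10 genes between cKO and Ctrl TFs and between gesicle-treated and Ctrl TFs, in 20% and in 1% O2 (points, edgeR's estimate, bars, SE, all open since none was called). *Nqo1*, *Gclc*, *Gclm*, *Txnrd1* and *Srxn1* lie below 0 in cKO TFs at both O2 levels, from -0.58 to -0.28, whereas the gesicle differences lie between -0.16 and 0.26.

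By edgeR no regulator of the pathway was called between the O2 levels. Of 9 regulators (*Nfe2l2* and *Nfe2l1*, *Keap1* and *Cul3*, *Bach1*, 3 small MAF genes and *Sqstm1*), edgeR called 0 in each O2 comparison, and DESeq2 called 0. At an unadjusted p under 0.05 by edgeR there were 1, 0 and 1 in Ctrl, cKO and gesicle-treated TFs, beside 16.1%, 19.8% and 17.3% of all genes tested. The largest difference in Ctrl TFs was that of *Keap1*, the inhibitor, at 0.57 ± 0.11 (adjusted p = 0.0166, edgeR), just under the fold minimum. It was called with Ctrl 1% replicate 2 left out (0.59, adjusted p = 0.0455). *Keap1* was at 67.7 ± 3.37 CPM in 20% and 99.9 ± 6.55 CPM in 1% O2 there (mean ± SD, n = 3), and its difference was 0.16 in cKO and 0.25 in gesicle-treated TFs. The mRNA of NRF2 itself, named here after its values were seen, differed by 0.18, 0.22 and 0.03 in the 3 arms, with *Nfe2l2* at 176 ± 14.1 CPM in 20% and 199 ± 7.48 CPM in 1% O2 in Ctrl TFs. *Maff*, a small MAF gene also named after its values were seen, was lower in cKO TFs by DESeq2, which called it in 20% (log2 difference -0.82, adjusted p = 0.0013) and 1% O2 (-0.75, adjusted p = 0.00791). EdgeR did not call it, at -0.80 (adjusted p = 0.0689) and -0.76 (adjusted p = 0.150), except in 20% O2 with no filter on low counts (-0.81, adjusted p = 0.0195), with all 18 libraries (-0.79, adjusted p = 0.0478) or without cKO 20% replicate 1 (-0.93, adjusted p = 0.0405). NRF2 protein was not measured in these libraries.

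Other genes listed as NRF2 targets were called higher in 1% O2 as well. Of 26 listed, 25 were tested, and 8 were called higher in Ctrl, 6 in cKO and 8 in gesicle-treated TFs, with 0 lower. Over all genes edgeR called 1.47%, 1.40% and 1.64% higher and 0.410%, 0.700% and 0.767% lower. DESeq2 called 14, 10 and 13 higher and 0 lower. Over all genes it called 442 and 474 of 28521 higher in Ctrl and cKO TFs, and 436 of 29727 in gesicle-treated TFs. Its all-gene counts lower were 252, 415 and 292. The median log2 difference was 0.80, 0.59 and 0.69, beside 0.000196, -0.03 and -0.02 over all genes tested. Above zero lay 22, 20 and 22 of the 25. *Hmox1*, whose enzyme breaks down heme, rose most among those called, from 428 ± 99.4 to 1461 ± 197 CPM in Ctrl, from 343 ± 64.8 to 1204 ± 133 CPM in cKO and from 451 ± 114 to 1517 ± 183 CPM in gesicle-treated TFs. This was 3.43-fold (adjusted p = 0.000627, edgeR), 3.53-fold (adjusted p = 0.000865) and 3.36-fold (adjusted p = 0.000243). The glutathione transferases *Gstm1* (1.43, 1.10 and 1.30 on the log2 scale) and *Gstp1* (1.16, 0.99 and 1.06), biliverdin reductase *Blvrb* (0.95, 0.96 and 1.02) and *Osgin1* (0.86, 0.98 and 0.94) were also called in all 3 arms. Ferritin heavy chain *Fth1* (1.25, 0.92 and 1.04) and the pentose phosphate enzyme *Taldo1* (0.88, 0.52 and 0.62) were called in Ctrl and gesicle-treated TFs, *Pgd* (0.69, 0.41 and 0.58), of the same pathway, in Ctrl alone, *Me1* (0.55, 0.62 and 0.52), which makes NADPH, in cKO alone, and ferritin light chain *Ftl1* (0.88, 0.88 and 0.97) in gesicle-treated TFs alone. A call in one arm and not in another is no difference between them, and 0 of these genes were called in either interaction. The largest difference was that of *Gsta2*, 2.66 in Ctrl TFs (adjusted p = 0.111), on few counts. *Fth1*, *Ftl1*, *Gstp1*, *Gstm1* and *Gsta2* have near-identical copies in the genome, among which reads could be split, and their values are uncertain.

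**Figure D4:**
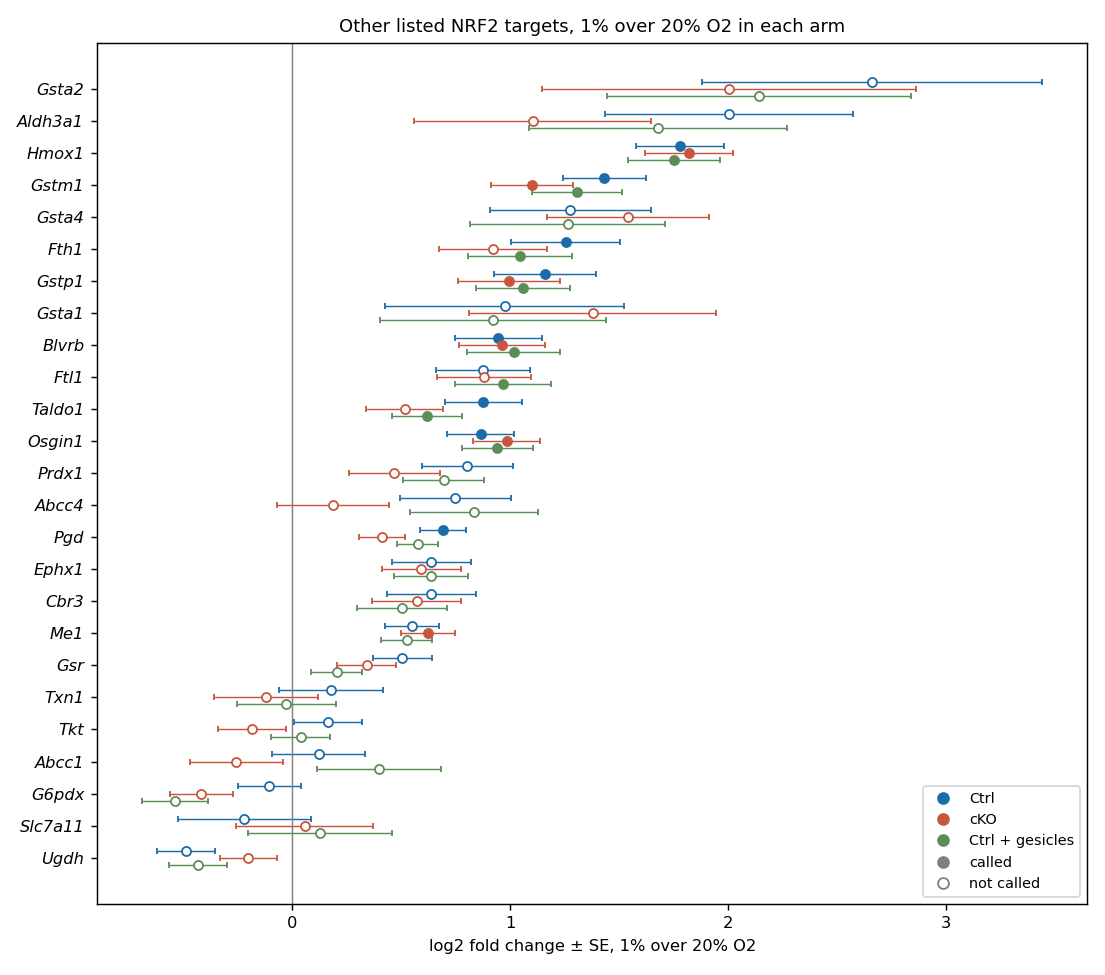
Log2 difference in CPM, 1% over 20% O2, of the 25 other listed NRF2 targets that were tested, in Ctrl, cKO and gesicle-treated TFs (points, edgeR's estimate, bars, SE, filled where called). *Hmox1* lies between 1.75 and 1.82 in the 3 arms, and 22, 20 and 22 of the genes lie above 0.

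Other branches of the same chemistry held few calls or none. Of all genes tested by edgeR, 16.1% in Ctrl, 19.8% in cKO and 17.3% in gesicle-treated TFs had an unadjusted p under 0.05 between the O2 levels. The shares and counts called over all genes are those given with the other NRF2 targets. Of 14 further glutathione enzymes, *Mgst1* (1.05, adjusted p = 0.0490, edgeR), a membrane-bound transferase, and *Glrx* (1.05, adjusted p = 0.0161), glutaredoxin, were called higher in Ctrl TFs and *Mgst1* (1.11) in gesicle-treated TFs. In cKO TFs edgeR called 0 of them, with 7 at an unadjusted p under 0.05, and DESeq2 called 2 higher and 1 lower. Of 16 further peroxiredoxin and thioredoxin genes edgeR called 0 in each arm, with 4, 2 and 1 at an unadjusted p under 0.05, and DESeq2 called 1, 1 and 0, all lower. The largest difference was that of *Msrb1*, -0.62 in Ctrl TFs (adjusted p = 0.0885). Of 14 selenoprotein genes, chosen because TXNRD1 and GPX3 contain selenocysteine, edgeR called 0 in each arm, with 1, 3 and 2 at an unadjusted p under 0.05, and DESeq2 called 1 lower in each. The largest was *Selenow*, at -0.59 in Ctrl TFs (adjusted p = 0.098).

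Of 4 genes that bring copper to SOD1 and SOD3, edgeR and DESeq2 called 0 in each arm, with 0 at an unadjusted p under 0.05, and the largest difference in Ctrl TFs was that of *Atox1*, 0.22. Of 7 genes listed for NADPH oxidases, 3 were tested, and edgeR called 0 of them in each arm. At an unadjusted p under 0.05 there was 1 in each arm, beside 16.1%, 19.8% and 17.3% of all genes tested. DESeq2 called 0 of the 6 it tested. The largest was *Cyba*, at 0.44 in Ctrl TFs (adjusted p = 0.169). Between genotypes, between gesicle-treated and Ctrl TFs and in the interactions edgeR called 0 genes of any of these 7 lists. At an unadjusted p under 0.05 there were 24 of their 85 genes in cKO against Ctrl TFs in 20% O2 and 17 in 1% O2, beside 14.3% and 16.8% of all genes tested. There were 4 and 0 in gesicle-treated against Ctrl TFs, beside 3.67% and 2.0%, and 2 in each interaction, beside 2.32% for cKO and 1.5% for gesicles. DESeq2 called 1 higher and 6 lower in cKO against Ctrl TFs in 20% O2 and 4 lower in 1% O2, and 0 in the others. Its counts over all genes are given with the genotype comparison.

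Genes of any function were also compared with *Nqo1* by the shape of their profile, as the root mean square difference in group mean log2 CPM over the 6 groups after centring. The closest of all genes tested were *Elmo3* (0.0743), *Tmem59l* (0.0883) and *Prkar2b* (0.108). *Hmox1* was the fourth (0.116) and *Gclm* the sixteenth (0.195). *Cat* was at rank 242 (0.428).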

How the data were processed

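Poly-A RNA-seq libraries of mouse tail TFs were sequenced as paired ends. Per the labels and the study's methods, reads were trimmed with cutadapt, mapped to GRCm38 with STAR and counted per gene with RSEM 1.3.3, and the authors deposited the estimated counts as whole numbers, without normalization, in a table of 55491 rows that includes 4 transgene rows. Strand use in counting is not given in the sources used here. The labels give 10% serum and the methods 1%, which was not resolved.

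Groups were taken from the labels. Counts were tested with edgeR 4.0.16 in R 4.3.3 (TMM, filterByExpr, quasi-likelihood F test, group means), with 15850 genes in the fit for Ctrl and cKO TFs (12 libraries) and 16174 in the fit for the gesicle comparisons (18 libraries), with Benjamini-Hochberg adjustment over all genes tested. Genes with an adjusted p under 0.05 were called where they also differed 1.5-fold or more. The SE was taken from F and the log2 fold change. The methods give n = 3 for the tail TFs. For a parallel assay they name 3 biological replicates of each genotype, with the split of sexes found in these libraries. No label ties a library to a mouse, so the p-values measure only the spread between these samples, which may be technical in part. No pair of libraries agreed within sampling noise (smallest chi-square per degree of freedom 14.1). The rule for the members uses gene names alone, but the members and gene lists were chosen with earlier results of these data known. Named beside the 10 members are every list gene called in at least 1 comparison between groups, the gene with the largest difference in Ctrl TFs in each list, the 3 genes most like *Nqo1*, and *Hif1a*.

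Same-numbered libraries deviated together between the O2 levels of Ctrl TFs (correlations of 0.27, 0.30 and 0.46) and between Ctrl and gesicle-treated TFs (0.35, 0.46 and 0.41 in 20% O2, 0.26, 0.19 and 0.28 in 1% O2), and the numbers were therefore read as pairing these samples. Same-numbered libraries of Ctrl and gesicle-treated TFs also had the same sex by *Xist* and Y-linked counts, as did those of cKO TFs between the O2 levels. The pairing comes from the data, not from the labels, and the main fits did not use it. The p-values given are thus unpaired except where the replicate block is named.

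Alternatives were DESeq2 1.42.0, RLE size factors, the replicate block, no filter on low counts, no fold minimum, the groups compared alone, *Xist* as a covariate, all 18 libraries in 1 fit and each library left out. Principal transcript length was added after seeing the data. The fits were also run on simulated counts with known changes, as a check of the fitting steps only. Those counts held no pairing and no sex difference, unlike these libraries. Gene positions came from GENCODE M21, whose identifiers matched for all 10 members, and promoters from RefSeq. The depth of 6857558 to 51806453 counts sets a floor of 3 counts at 0.0592 to 0.427 CPM, for counting error only.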

Additional observations from a re-analysis of the deposited data

How the results depend on the processing

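Over all members and comparisons, 660 of the results under an alternative setting kept their direction and side of the threshold, 7 lost a call and 3 reversed, and with 1 library left out 554 kept both, 22 lost a call and 84 reversed. The *Nqo1* and *Gclm* calls in 1% against 20% O2 were among those kept in every arm under every alternative and left-out library. The cause of the changes below was not tested, except that fitting the compared groups alone uses fewer libraries. DESeq2 called 694 genes in 1% against 20% O2 in Ctrl, 889 in cKO and 728 in gesicle-treated TFs (298, 333 and 390 by edgeR), 432 and 288 in cKO against Ctrl TFs in 20% and 1% O2 (55 and 6 by edgeR), 46 in gesicle-treated against Ctrl TFs in 20% O2 (4 by edgeR) and 2 in the interaction of cKO and O2 (0 by edgeR). With no filter the counts were 511 for the cKO response to O2, 281 and 111 for cKO against Ctrl TFs in 20% and 1% O2 and 23 for gesicles in 20% O2. With the compared groups alone they were 84 for the cKO and 120 for the gesicle response, 1 and 0 for cKO against Ctrl TFs, 1 for gesicles in 20% O2 and 1 for the interaction of gesicles and O2, and 2 members were called in the cKO and 2 in the gesicle response. All 18 libraries in 1 fit gave 87 and 14 genes in cKO against Ctrl TFs, *Xist* as a covariate 15 in 1% O2 and 0 for gesicles in 20% O2. RLE size factors gave 4 higher and 1 lower in cKO against Ctrl TFs in 1% O2, where TMM gave 4 and 2.

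The replicate block gave 2 genes in cKO against Ctrl TFs in 1% O2 and ended the *Sod3* call in gesicle-treated TFs (0.73, adjusted p = 0.0685, edgeR). It changed no other member's call. Between Ctrl and cKO TFs each replicate number joined libraries of opposite sex, so the block did not pair like samples there. Same-numbered libraries correlated at 0.10, 0.09 and 0.37 between the O2 levels of cKO TFs and at 0.04, 0.22 and -0.01 in gesicle-treated TFs, where 2 and 1 of 3 numbers had their best match in their own number, and at -0.15, -0.04 and -0.10 between Ctrl and cKO TFs in 20% O2.

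With 1 library left out, the genes called ranged from 116 to 261 in the Ctrl response to O2, from 98 (without cKO 20% replicate 3) to 1373 (without cKO 20% replicate 2) in the cKO response and from 148 to 346 in the gesicle response. They ranged from 1 to 154 and from 0 to 6 in cKO against Ctrl TFs in 20% and 1% O2, from 0 to 2 for gesicles in 20% O2 and from 0 to 1 in the interaction of cKO and O2. Members called ranged from 3 to 4 in Ctrl, 2 to 4 in cKO and 3 to 5 in gesicle-treated TFs. Differences that crossed zero were uncalled. For 1% against 20% O2 these were *Gpx3* in Ctrl (-0.23 to 0.19), cKO (-0.0728 to 0.40) and gesicle-treated TFs (-0.11 to 0.35), *Sod2* (-0.13 to 0.0116, -0.0481 to 0.16 and -0.0579 to 0.0747) and *Sod1* in cKO TFs (-0.0214 to 0.42). For cKO against Ctrl TFs in 20% O2 they were *Gpx3* (-0.18 to 0.24) and *Sod2* (-0.0593 to 0.14). For gesicles in 20% O2 they were *Nqo1* (-0.32 to 0.050), *Txnrd1* (-0.0945 to 0.0613), *Sod1* (-0.12 to 0.0814), *Sod2* (-0.13 to 0.0120), *Cat* (-0.17 to 0.0872) and *Gpx3* (-0.18 to 0.0198), and *Txnrd1* also reversed in the groups alone (-0.00075) and *Sod1* with *Xist* (-0.0033) and in the groups alone (-0.0011). For gesicles in 1% O2 they were *Nqo1* (-0.0977 to 0.0545), *Gclc* (-0.14 to 0.0707), *Gclm* (-0.15 to 0.0192), *Txnrd1* (-0.0875 to 0.0488), *Sod1* (-0.0700 to 0.0986), *Sod2* (-0.0381 to 0.11), *Sod3* (-0.0455 to 0.23), *Cat* (-0.0901 to 0.15) and *Gpx3* (-0.14 to 0.32). In the interaction of cKO and O2 they were *Gclm* (-0.16 to 0.11), *Srxn1* (-0.0195 to 0.11), *Sod1* (-0.42 to 0.0309), *Cat* (-0.0929 to 0.17) and *Gpx3* (-0.0585 to 0.41), and in that of gesicles and O2 *Nqo1* (-0.11 to 0.26), *Txnrd1* (-0.11 to 0.0592), *Srxn1* (-0.11 to 0.0950), *Sod1* (-0.0701 to 0.13), *Sod3* (-0.42 to 0.0132), *Cat* (-0.0660 to 0.22) and *Gpx3* (-0.0514 to 0.41).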
